A study of Mus musculus with 8 samples.

Results

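Chromatin accessibility at 4 fatty acid binding protein genes, Fabp1, Fabp3, Fabp4 and Fabp5, was read from the ATAC-seq peak lists of 8 libraries of mouse alveolar macrophages (AMs). A region was counted for a gene when a peak in any library overlapped the gene body or the 20 kb on either side (mm10, GENCODE M21), and peaks that shared a base were merged across libraries. This gave 24 of the 82424 merged regions of the series, with 10 at Fabp1, 4 at Fabp3, 3 at Fabp4 and 7 at Fabp5. AMs were sorted from bronchoalveolar lavage of adult mice on a C57BL/6J background. The KO group (4 libraries, replicates 1_2, 1_3, 2 and 3) carried CD11cCre and Rxrab fl/fl, so that both Rxra and Rxrb were deleted in cells in which the Cd11c promoter drives Cre. The WT group (4 libraries, replicates 1_2, 1_3, 3 and 4) lacked the Cre transgene, and the floxed alleles of Rxra and Rxrb were common to both groups. Cre from this promoter is not limited to AMs, since dendritic cells and other lung macrophages use it too. Per the study, the cells were mature AMs (mAMs) of mice 9 wk old, while the labels say only adult AMs, and sex is not given per library.

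Fatty acid binding proteins are small cytosolic carriers. They take up long-chain fatty acids in an internal cavity and hand them to membranes, enzymes and nuclear receptors. Fabp1 is the liver form, Fabp3 the heart form, Fabp4 the adipocyte form (also known as aP2) and Fabp5 the epidermal form. Fabp4 and Fabp5 are also made by macrophages, and the study counts Fabp1 among the core genes of AMs. AMs clear the lipids of lung surfactant. The retinoid X receptors (RXRs) bind DNA as partners of the PPARs, which fatty acids activate, and Fabp4 is a classical target of the PPARγ and RXR pair in adipocytes. In ATAC-seq, the transposase Tn5 cuts accessible DNA, so a peak marks an open stretch of chromatin, not expression of the gene beside it.

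The genes lay on 3 chromosomes. Fabp1 was at chr6:71199827-71205023 on the plus strand, Fabp3 at chr4:130308595-130315463 on the plus strand, Fabp4 at chr3:10204088-10208576 on the minus strand and Fabp5 at chr3:10012548-10016607 on the plus strand. Each had 1 annotated transcription start site (TSS). Fabp4 and Fabp5 belong to one gene cluster, but 187 kb separated them and their windows did not overlap. The Fabp1 window also reached into Smyd1, the Fabp3 window into Gm10570 and Zcchc17, the Fabp4 window into Fabp9, Gm37389 and 4632432E15Rik, and the Fabp5 window into the noncoding RNA gene Gm38335. A region named here by its distance from a Fabp gene is therefore not shown to act on that gene.

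The sequences below are those of 3 regions that were less accessible in KO AMs, 2 at Fabp1 and 1 at Fabp5, and of a weak Fabp3 region that held the closest match to the element bound by PPAR and RXR pairs. They are taken from the GRCm38 reference, plus strand, 100 bp to either side of the region's strongest summit. Capitals mark the matches to the motifs that are described further on.
Fabp1 14.5 kb upstream, chr6:71185270-71185470: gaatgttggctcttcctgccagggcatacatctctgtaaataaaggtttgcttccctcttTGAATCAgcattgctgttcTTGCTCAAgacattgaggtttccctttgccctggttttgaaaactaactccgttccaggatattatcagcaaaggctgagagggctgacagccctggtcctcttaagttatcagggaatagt
Fabp1 24.6 kb downstream, chr6:71224360-71224560: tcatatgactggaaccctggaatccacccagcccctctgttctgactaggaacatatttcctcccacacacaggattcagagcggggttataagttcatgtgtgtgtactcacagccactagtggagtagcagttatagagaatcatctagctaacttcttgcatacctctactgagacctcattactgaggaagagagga
Fabp5 7.5 kb upstream, chr3:10004907-10005107: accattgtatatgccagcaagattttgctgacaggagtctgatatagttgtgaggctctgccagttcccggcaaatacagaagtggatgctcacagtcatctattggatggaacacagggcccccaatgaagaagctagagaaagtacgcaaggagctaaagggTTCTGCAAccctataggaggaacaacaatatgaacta
Fabp3 625 bp upstream, chr4:130307870-130308070: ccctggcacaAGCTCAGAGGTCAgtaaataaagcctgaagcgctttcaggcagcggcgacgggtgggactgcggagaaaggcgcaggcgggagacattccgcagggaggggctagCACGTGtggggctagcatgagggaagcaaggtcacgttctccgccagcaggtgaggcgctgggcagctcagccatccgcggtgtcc

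The libraries held 60363 to 72484 peaks each. Read totals were not used here. Depth was read instead from the peak caller's background, which was 1.12 to 1.86 tags (read ends extended to 200 bp) per 200 bp in KO and 1.42 to 2.26 in WT. Values listed for the libraries of a genotype follow the replicate order just given. Summit tags, the number of tags piled up at a peak's summit, were worked back from the enrichment and the p-value listed for each peak. KO replicates 1_2 and 1_3 differed by less than sampling noise over the 47499 regions called in every library (chi-square per degree of freedom 0.980), and KO replicates 2 and 3 by about sampling noise (1.01), against 1.10 to 1.28 for the other KO pairs and 1.12 to 1.99 for the WT pairs. Whether they came from separate animals is not shown by these values, so calls on regions with a peak in all libraries are also given with those KO pairs averaged, which leaves 2 KO samples. Of 16 regions called in at least 2 libraries in Rxra, 1 had a peak in every WT library and in no KO library, at chr2:27744546-27744950, and Rxrb had 0 of 2. Over the genome 0.82% of such regions had this pattern, and these counts are no test of the deletion. Promoter peaks were found for 7 of 10 AM markers in each KO library and 7 or 8 in each WT library, with Chil3 and Krt79 at none. Promoters of the 4 T cell, 4 B cell, 4 hepatocyte and 4 cardiomyocyte markers had no peak in any library. Those of 3 of 4 neutrophil markers, 2 of 4 epithelial and 2 of 4 adipocyte markers had a peak in every library, including S100a8, Scgb1a1 and Plin1, whereas Ly6g, Sftpc, Sftpb, Adipoq and Lep had none. Another of these neutrophil markers, Mmp8, is counted by the study among the core genes of AMs. Monocyte markers numbered 2 or 3 of 4 in both groups, and endothelial markers 1 of 4 in KO and 1 or 2 in WT. In such bulk libraries, fewer cells with an open region and a less open region in each cell cannot be told apart.

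The 4 genes differed in how much open chromatin surrounded them. Fabp1 had 8 of its 10 regions, Fabp5 6 of 7 and Fabp4 2 of 3 in all 8 libraries, whereas Fabp3 had 0 of 4. Over the genome, 65.3% of regions called in at least 2 libraries had a peak in all 8, and the Fabp windows held 22 such consensus regions. The strongest region was 1.7 kb upstream of the TSS at Fabp1, 4.9 kb upstream at Fabp4, at the promoter itself at Fabp5 and 18.6 kb upstream at Fabp3. No peak covered the Fabp1 TSS.

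**Figure D1:**
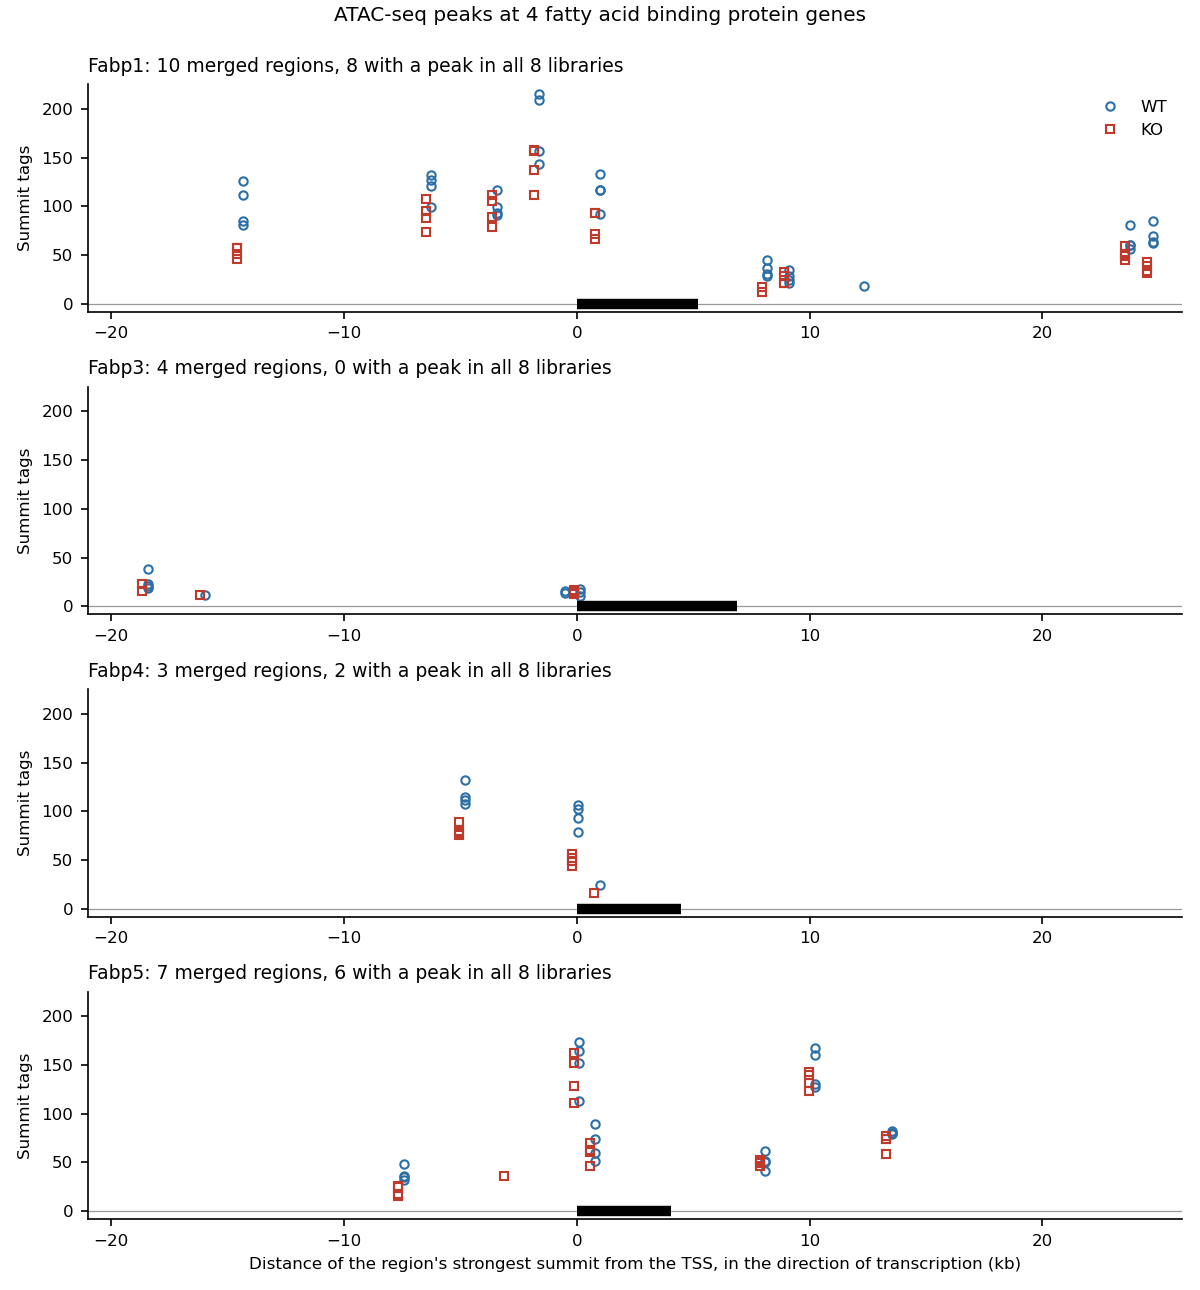
Summit tags in each library (vertical axis, tags per 200 bp) against distance from the TSS of each gene (horizontal axis, kb, positive in the direction of transcription), with WT as circles set slightly to the right, KO as squares set slightly to the left, and the gene body as a black bar. Fabp1 and Fabp5 carry several regions above 100 tags, and no Fabp3 region passes 38 tags.

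The promoter of Fabp5 had the highest mean summit tags of the 4. Its summit tags were 152, 162, 128 and 111 in KO, and 152, 164, 174 and 113 in WT. Its summit was 8 bp upstream of the TSS. In WT it stood at percentile 53.3 of the 11611 protein-coding genes with a promoter peak in every library. Next came the Fabp1 region in intron 1, 894 bp downstream of the TSS, with 92 to 133 tags in WT, and the Fabp4 promoter with 79 to 106. These WT ranges overlapped, as did those of Fabp1 and Fabp5. The Fabp4 and Fabp5 ranges did not, with the lowest Fabp5 library at 113 tags. The Fabp3 TSS was far below, at 11 to 18 tags in the 3 WT libraries with a peak, and it shares its region with the start of Gm10570.

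Of the 24 regions, 16 had a peak in every library and could be tested. The test was limma on log2(tags + 0.5), with each library centred on its median over all 47499 such regions and p-values adjusted over all of them. Of the 16, 4 were lower in KO and 0 higher, and 12 did not pass. The 4 lower regions were 2 at Fabp1, the Fabp4 promoter and 1 upstream of Fabp5. Over the genome, 7.03% of regions tested were lower in KO and 5.81% were higher, against 25% and 0% at the Fabp genes. That genome split depended on the scaling, with 3337 regions lower and 2759 higher in the main setting, but 1988 and 575 when libraries were scaled by background. The median log2 difference, KO minus WT, was -0.13 over the 16 regions and 0.04 over all regions tested. With the KO pairs averaged, 3 of the 4 stayed past the threshold, and the Fabp5 region was lost. These counts describe 4 chosen genes, with no test of the genes as a set.

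**Figure D2:**
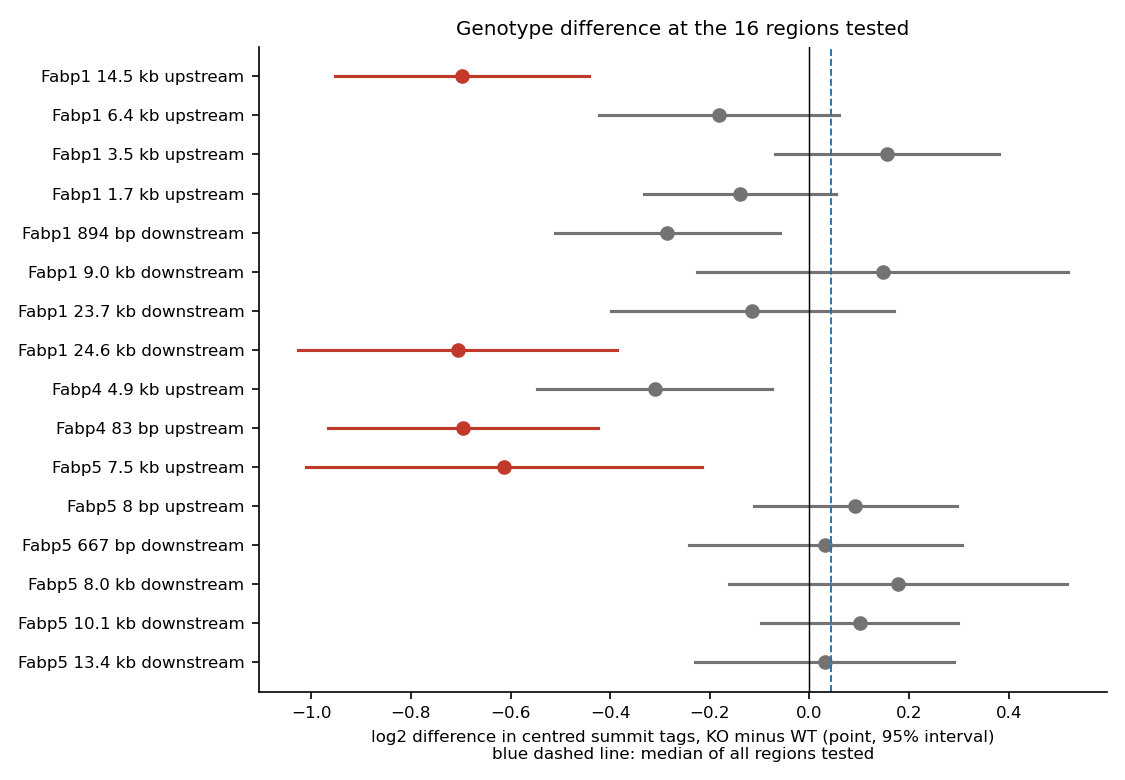
The log2 difference in centred summit tags, KO minus WT (horizontal axis, point and 95% interval), at each of the 16 regions tested (vertical axis, ordered by gene and position), in red where the adjusted p was under 0.05 and in grey otherwise. The 4 red regions lie between -0.71 and -0.61, and no Fabp5 region other than that 7.5 kb upstream lies below 0.

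**Figure D3:**
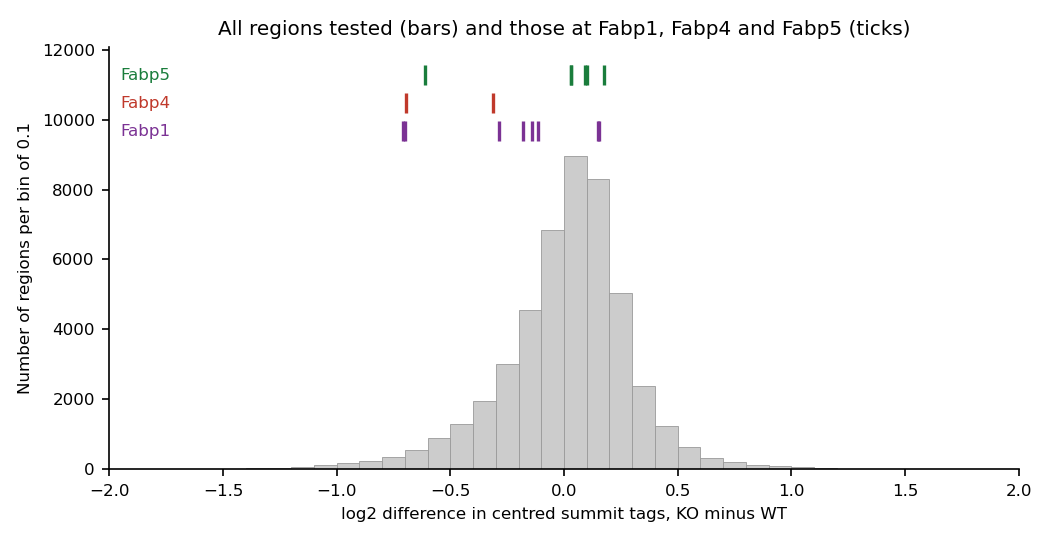
Number of regions (vertical axis) per bin of 0.1 in the log2 difference, KO minus WT (horizontal axis), for all 47499 regions tested, with the 16 Fabp regions as ticks in a row for each gene. The ticks of the 4 called regions lie in the left tail, and the other ticks lie between -0.31 and 0.18, within the body of the bars.

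Fabp1, the liver-type carrier, lost accessibility at its 2 outermost regions. The first lay 14.5 kb upstream of the TSS, at chr6:71185047-71185726, between genes. The KO libraries had 57, 57, 46 and 51 summit tags there, and the WT libraries had 85, 126, 112 and 81. Every KO library was below every WT library, with a gap from 57 to 81 tags. This held after centring too, as at 7.91% of all regions tested. The centred level in KO was 61.6% of that in WT, a log2 difference of -0.70 ± 0.13 (SE, limma, adjusted p = 8.65e-05, and 0.0018 with the KO pairs averaged). Summits fell within 69 bp of each other in the 8 libraries, and each library listed a single peak of 611 to 678 bp, so both genotypes shared the position.

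The other lay 24.6 kb downstream of the Fabp1 TSS, at chr6:71224180-71224853, in an intron of Smyd1, a methyltransferase gene of heart and skeletal muscle. Its summit tags were 32, 34, 39 and 43 in KO and 64, 85, 63 and 70 in WT. Again no library of one genotype reached the range of the other, before or after centring. KO had 61.3% of the WT level, a log2 difference of -0.71 ± 0.16 (SE, limma, adjusted p = 0.0015, and 0.013 with the KO pairs averaged). A second region of the same intron, 23.7 kb downstream and close beside it, had 45 to 59 tags in KO and 56 to 81 in WT and did not pass (log2 difference -0.11, 95% interval -0.40 to 0.17, limma adjusted p = 0.654).

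Nearer to Fabp1 the genotypes were closer. The strongest region, 1.7 kb upstream of the TSS at chr6:71197703-71198601, had 157, 158, 137 and 112 tags in KO and 157, 215, 209 and 144 in WT. The groups overlapped, and the log2 difference of -0.14 (95% interval -0.33 to 0.05, limma adjusted p = 0.369) did not pass. The region in intron 1, at chr6:71200543-71200911, had 93, 93, 67 and 72 tags in KO and 117, 133, 117 and 92 in WT. Its tags overlapped between the genotypes, but after centring every KO library was below every WT library, as at 7.91% of all regions tested. The difference of -0.29 ± 0.11 (SE) had an adjusted p of 0.0869 in limma and an unadjusted p of 0.0286 in the exact permutation test (two-sided, n = 4 per group), the smallest p this design allows. The other 3 regions, from 6.4 kb upstream to 9.0 kb downstream, had log2 differences from -0.18 to 0.16 and overlapped.

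A Fabp1 region 8.1 kb downstream of the TSS, at chr6:71207727-71208074, was outside the test because 2 KO libraries had no peak there. It is named because its call changed with the setting, which was seen after the values were known. Summit tags were 31, 45, 29 and 37 in WT, and KO replicates 1_3 and 3 had 17 and 12. All WT libraries were above the KO libraries with a peak. The pattern of a peak in 4 WT and 2 KO libraries was found at 1.95% of consensus regions. When missing peaks were set to the library's smallest listed summit (6 to 9 tags), the log2 difference was -1.45 ± 0.29 (SE, limma, adjusted p = 0.0107). Since a missing peak can hold any number of tags too low to be called, this size depends on the value put in. The remaining Fabp1 region, 12.2 kb downstream, was a peak of 18 tags in WT replicate 1_3 alone.

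At Fabp4, the adipocyte-type carrier, the promoter itself was less accessible in KO. The region at chr3:10208440-10208887 covered the TSS, with its summit 83 bp upstream. It had 56, 49, 44 and 52 summit tags in KO and 79, 106, 102 and 93 in WT. The groups were separated by the gap from 56 to 79 tags. They stayed apart after centring, as at 7.91% of all regions tested. KO had 61.8% of the WT level, a log2 difference of -0.70 ± 0.13 (SE, limma, adjusted p = 0.00022, and 0.0038 with the KO pairs averaged). Among protein-coding promoters with a peak in every library, it stood at percentile 32.7 in WT and 15.8 in KO. This region also lies within 20 kb of Fabp9, a testis-type member of the family.

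The strongest Fabp4 region lay 4.9 kb upstream, at chr3:10213285-10214139, in the stretch of upstream DNA known to hold the adipocyte enhancer of this gene. Summit tags were 76, 78, 80 and 89 in KO and 112, 132, 115 and 107 in WT. The tags of the genotypes did not overlap, but the centred values did, with KO replicate 3 at 0.64 and WT replicates 1_3 and 3 at 0.53 and 0.63 on the log2 scale. The log2 difference of -0.31 ± 0.12 (SE, limma) had an adjusted p of 0.0706 and did not pass. Without KO replicate 3 it was -0.40 with an adjusted p of 0.0277. It passed in no other alternative, with an adjusted p of 0.188 with the KO pairs averaged and 0.264 with background scaling (limma). The third Fabp4 region, 861 bp downstream of the TSS in an intron, was a peak in KO replicate 1_3 (16 tags) and WT replicate 1_3 (24 tags) only.

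Fabp5, the epidermal-type carrier, had a lower region 7.5 kb upstream, at chr3:10004672-10005315, and no difference that passed at the gene itself. There, the KO libraries held 25, 16, 26 and 18 summit tags and the WT libraries 35, 36, 48 and 32. The tags did not overlap, but after centring KO replicate 2 (-1.19) was above WT replicate 1_3 (-1.33). KO had 65.4% of the WT level, a log2 difference of -0.61 ± 0.20 (SE, limma, adjusted p = 0.0313). This was the weakest of the 4 calls. It was lost with the KO pairs averaged (adjusted p = 0.0964), with background scaling (0.0604), when regions with missing peaks were added (0.146), and without KO replicate 1_3 (0.132), KO replicate 3 (0.0712), WT replicate 1_2 (0.0536), WT replicate 3 (0.136) or WT replicate 4 (0.0523). The exact permutation test gave an unadjusted p of 0.0571 (two-sided, n = 4 per group).

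The Fabp5 promoter, chr3:10012204-10012888, gave a log2 difference of 0.09 (95% interval -0.11 to 0.30, limma adjusted p = 0.604). A second region in the first intron, 667 bp downstream of the TSS, had 63, 70, 61 and 46 tags in KO and 60, 89, 74 and 52 in WT, and a difference of 0.03 (95% interval -0.24 to 0.31, limma adjusted p = 0.913). Its sign turned under background scaling and when some libraries were left out. The 3 regions from 8.0 to 13.4 kb downstream, of which the middle one overlapped an exon of Gm38335, had differences from 0.03 to 0.18, and their centred values overlapped. At the Fabp4 promoter the interval was -0.97 to -0.42 and at the Fabp5 promoter -0.11 to 0.30, so these intervals did not meet. The difference between the 2 promoters was not tested. The remaining Fabp5 region, 3.0 kb upstream, was a peak of 36 tags in KO replicate 1_3 alone.

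**Figure D4:**
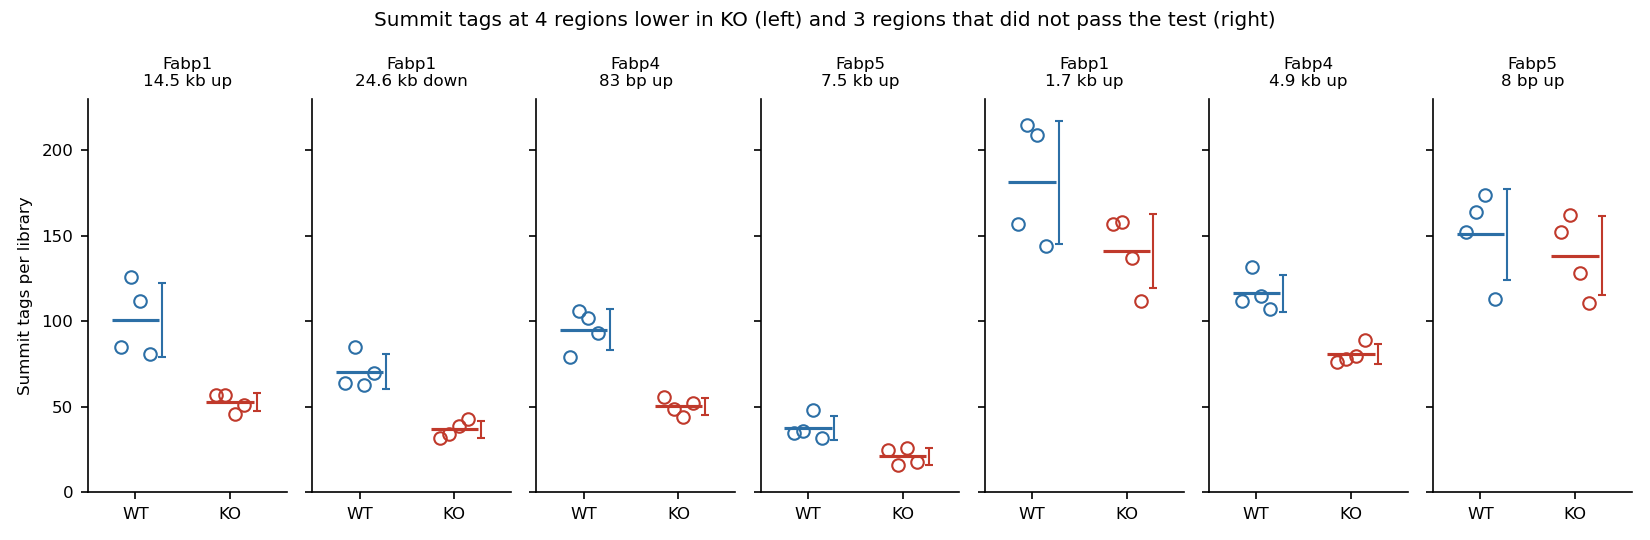
Summit tags per library (vertical axis) in 4 WT and 4 KO libraries at the 4 called regions (left) and at 3 regions that did not pass (right), with the group mean as a line and the SD as a bar beside it. The tags are drawn without centring and so are not corrected for depth. KO and WT tags are apart at the 4 called regions and at the Fabp4 region 4.9 kb upstream, and they overlap at the other 2.

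Fabp3, the heart-type carrier, was the least accessible of the 4 genes, and none of its regions could enter the test. The TSS region, chr4:130308444-130309015, had 15, 14, 17 and 13 summit tags in KO and 11, 18 and 15 in WT replicates 1_2, 1_3 and 4, with no peak in WT replicate 3. The genotypes overlapped. A region 625 bp upstream of the TSS, at chr4:130307835-130308104, was called in WT replicates 1_3 (16 tags) and 3 (14 tags) and in no KO library. The strongest, 18.6 kb upstream at chr4:130289826-130290189, had 21, 38, 23 and 19 tags in WT and 16 and 23 in KO replicates 1_2 and 1_3. With missing peaks filled in, these 3 regions had log2 differences of 0.49 (adjusted p = 0.371), -0.27 (0.571) and -0.87 (0.17) in limma, none past the threshold. The fourth, 16.1 kb upstream, was a peak of 12 tags in KO replicate 1_3 and WT replicate 3 only. The smallest summits listed in these libraries rested on 6 to 9 tags, so the Fabp3 regions lay near the limit of what was called.

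No Fabp region was called throughout one genotype while absent from the other. The pattern of 4 WT and no KO library was found at 0.82% of consensus regions, and the reverse at 0.285%, against 0 of 22 in each direction at the Fabp genes. The number of peaks per library was 8, 9, 8 and 9 in KO and 9, 10, 9 and 9 in WT at Fabp1 (8.5 ± 0.58 and 9.3 ± 0.50, SD, n = 4 libraries, two-sided exact permutation p = 0.286). At Fabp3 it was 2, 3, 1 and 1 in KO and 2, 3, 3 and 2 in WT (exact permutation p = 0.4), at Fabp4 2 or 3 in both (exact permutation p = 1) and at Fabp5 6 in every library but KO replicate 1_3, which had 7 (exact permutation p = 1). Only regions with a peak in every library entered the test, so the 4 called differences could only be in peak height.

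The stretch of chromosome 3 between the Fabp5 and Fabp4 windows was examined because the 2 genes belong to one cluster. It held 16 merged regions, of which 9 had a peak in all libraries. Of these, 3 were lower in KO and 0 higher, where 7.03% and 5.81% of all regions tested over the genome were. They lay 57.4, 58.8 and 84.8 kb downstream of the Fabp5 TSS, with log2 differences of -0.53, -0.66 and -0.54 (limma adjusted p = 0.0241, 0.0112 and 0.0222). None of the 3 passed with the KO pairs averaged (adjusted p = 0.0847, 0.0525 and 0.0774). With background scaling only the region at 58.8 kb passed (limma adjusted p = 0.0310), with 0.0614 at 57.4 kb and 0.0765 at 84.8 kb. The first, chr3:10069742-10070125, had 49, 54, 27 and 31 tags in KO and 54, 92, 61 and 59 in WT, so that the groups met at 54 tags. The middle one, chr3:10071160-10071584, had 33, 28, 21 and 18 tags in KO and 37, 50, 56 and 39 in WT, and the last, chr3:10096931-10097578, had 28, 35, 28 and 31 in KO and 46, 57, 58 and 47 in WT. The tags of these last 2 regions, which are not corrected for depth, did not overlap.

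Short sequence motifs were searched on both strands within 100 bp of the strongest summit of the 22 consensus regions. The DR1 element, which PPAR and RXR pairs bind, is the AGGTCA hexamer repeated in the same direction with 1 base between the copies, and up to 2 mismatches were allowed. It was found at 2 of 22 Fabp regions, against 4.14% of all 72711 consensus regions, and both were weak Fabp3 regions. The match 625 bp upstream of Fabp3, shown above, had 1 mismatch. None of the 4 lower regions held it. In a wider window of 500 bp to either side, chosen after the first search was seen, 4 of 22 Fabp regions held it against 15.3% of all. These were 3 Fabp3 regions and the Fabp1 intron, and not the 4 lower regions or the Fabp4 region 4.9 kb upstream. Elements with more than 2 mismatches were not searched for. A region without a match is therefore not shown to lack an element that PPAR and RXR pairs bind.

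AP-1 sites (TGANTCA) were found at 6 of 22 Fabp regions against 11.9% of all. They were at 2 of the 4 lower regions and at 3 of the 12 tested regions that did not pass, and the site of the Fabp1 region 14.5 kb upstream is in capitals above. C/EBP sites (TTGCNNAA) were found at 3 of 22 against 14.7% of all, among them the Fabp1 region 14.5 kb upstream and the Fabp5 region 7.5 kb upstream. The PU.1 motif GAGGAAGT was found at 0 of 22 against 10.7%. RBPJ (GTGGGAA) was at 3 of 22 against 5.10%, STAT5 (TTCNNNGAA) at 2 against 5.98%, RUNX (TGTGGTT) at 1 against 8.98% and the E-box CACGTG at 1 against 5.35%. The Fabp1 region 24.6 kb downstream held none of these motifs, as its sequence above, with no capitals, shows. No match overlapped another.

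The promoters most like each Fabp promoter were named by the mean absolute difference of centred log2 tags over the 8 libraries, among 12250 promoter regions. For Fabp4 they were those of Snn, Pcbp3 and Map2k6, at 0.14, 0.15 and 0.15. These promoters were also lower in KO, with log2 differences of -0.58, -0.77 and -0.70, a direction that the choice by likeness fixes. For the Fabp5 promoter they were Oas1c, Zfp13 and Eif1a (0.075 to 0.076), and for the Fabp1 intron region Ehd4, Nrg4 and Chsy1 (0.065 to 0.084).

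Other genes of fatty acid handling were counted in the same way. Their shares stand beside those of all regions tested over the genome, 7.03% lower and 5.81% higher. Of 11 other genes of the intracellular lipid-binding family, 6 had a tested region within 20 kb, and of 21 such regions 2 were lower in KO (9.52%) and 0 higher. These were the Fabp4 promoter, counted here for its neighbour Fabp9, and a region at Fabp12, chr3:10294330-10294780, with a log2 difference of -1.02 ± 0.17 (SE, limma, adjusted p = 1.29e-05, and 0.00074 with the KO pairs averaged). It had 29, 32, 31 and 35 tags in KO and 61, 73, 93 and 77 in WT. The 2 tested regions near Fabp9 are the 2 tested Fabp4 regions, so the only lower region new to this list is that at Fabp12. Among 14 genes of fatty acid uptake and activation, 70 regions were tested, with 5 lower (7.14%) and 2 higher (2.86%), and a median log2 difference of 0.01. The lower count fell to 3 with the KO pairs averaged and to 2 with background scaling, and the higher count to 0 in each. The lowest adjusted p-values were at Acsl3 and Acsl1, which encode acyl-CoA synthetases, and at Cd36, a fatty acid translocase, with log2 differences of -1.08, -0.44 and -0.30 (limma adjusted p = 6.09e-05, 0.0054 and 0.0398, and 0.0013, 0.0243 and 0.156 with the KO pairs averaged). With background scaling the Acsl3 region still passed (limma adjusted p = 8.59e-05), but those of Acsl1 and Cd36 did not (0.0502 and 0.226). Both of the higher regions of this list were also at Acsl1, with 0.28 and 0.27 (adjusted p = 0.016 and 0.0193 in limma). Neither passed with the KO pairs averaged (0.102 and 0.11) or with background scaling. At the 8 PPAR, RXR and LXR receptor genes, 1 of 62 regions was lower (1.61%) and 5 were higher (8.06%). The higher counts fell to 3 with the KO pairs averaged and to 2 with background scaling, and the lower count was 1 in each. Ppard held 2 of the higher regions (0.60 and 0.58) and the lower one (-0.56, limma adjusted p = 0.0078, and 0.0378 with the KO pairs averaged). The others were at Ppara (0.49), Pparg (0.38) and Rxra (0.36). The adjusted p of the strongest at Ppard, Ppara, Pparg and Rxra was 3.92e-06, 0.0014, 0.0272 and 0.0443 in limma, and 0.00072, 0.0248, 0.113 and 0.142 with the KO pairs averaged.

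**Figure D5:**
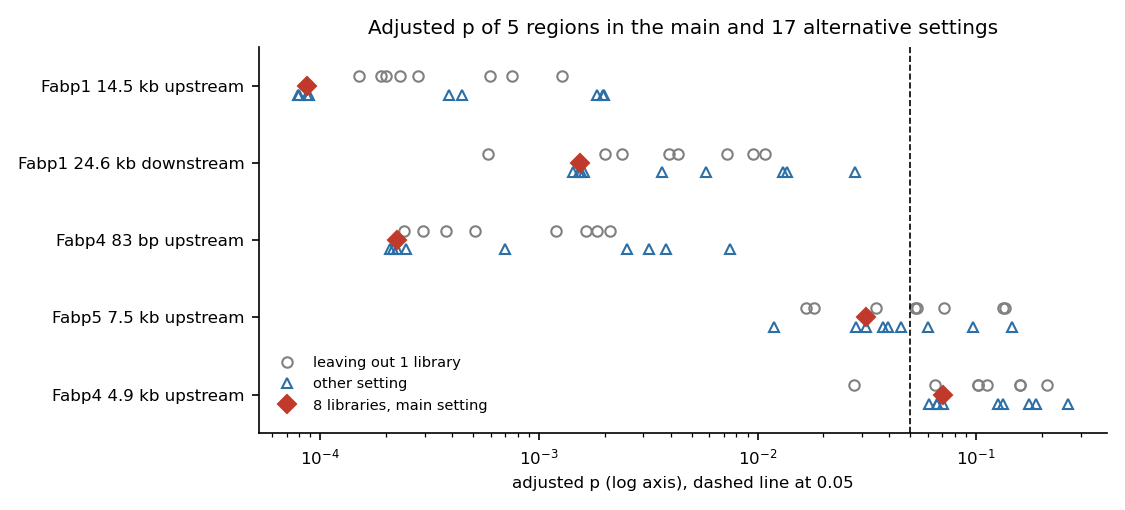
Adjusted p (horizontal axis, log scale, dashed line at 0.05) of the 4 called regions and of the Fabp4 region 4.9 kb upstream in the main setting (diamond), with 1 library left out (circles) and under other settings (triangles). The 2 Fabp1 regions and the Fabp4 promoter stay left of the line in every setting drawn, and the Fabp5 region crosses it.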

How the data were processed

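AMs were sorted from lavage fluid, and nuclei were tagmented with Tn5. As the labels and methods state, adapters were cut from read pairs by the authors (Cutadapt), who mapped them with Bowtie2 (mm10), dropped duplicates (Picard, samtools) and called peaks in each library with MACS3 at a q-value of 0.05 on tags extended to 200 bp. The deposited lists give a score, a fold enrichment ratio, a −log10 p-value, a −log10 q-value and the summit of each peak. Summit tags were solved from the enrichment and the −log10 p-value, and 100% of peaks were met within a relative error of 1e-05. Counts of reads were not used here, so limma 3.58.1 was run on log2(tags + 0.5) over regions with a peak in all 8 libraries, after a check on simulated data, and p-values were adjusted by the Benjamini-Hochberg method. Regions were merged where they shared 1 base, and a consensus region had a peak in at least 2 libraries. Regions given library by library are each gene's promoter regions (summit within 1 kb of the TSS), its strongest region and every region called. The genes, lists, markers and motifs were chosen with earlier results of these data known. Labels do not say whether replicates came from separate animals, although the series design calls them biological replicates, so p-values measure the spread between libraries. No batch was given. R 4.3.3 and Python 3.11.15 were used. The sequence of 1 of the lower regions is not reported here.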

Additional observations from a re-analysis of the deposited data

Results flagged for a closer look

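A peak called in KO replicate 1_3 alone lay 3.0 kb upstream of Fabp5, at chr3:10009507-10009706. It held 36 summit tags, more than any KO library had at the called region 7.5 kb upstream, but only a 3.71-fold enrichment over its local background, and its width of 200 bp was the smallest any Fabp peak had. It was looked at again because no WT library had a peak there. Its cause was not tested. Among 32 sets of 4 libraries (16 Fabp regions in each genotype), 0 had a library that stood apart by Dixon's test at the 95% level, where chance flags about 1 in 20.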

How the results depend on the processing

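The lower calls at Fabp1 14.5 kb upstream, Fabp1 24.6 kb downstream and the Fabp4 promoter kept their direction in all 18 alternatives each. Their log2 differences ran from -0.76 to -0.64, -0.83 to -0.61 and -0.77 to -0.57. They stayed past the threshold in every alternative that gave an adjusted p. The remaining alternative, the exact permutation test, gave an unadjusted p of 0.0286 at each. That is the smallest p this design allows, so it cannot decide whether the adjusted threshold is passed. The Fabp5 region 7.5 kb upstream kept its direction (-0.73 to -0.47) but was lost in 9 of 18. These 9 include the exact permutation test, whose unadjusted p was 0.0571. The number of Fabp regions lower in KO was 4, and 3 to 4 with 1 library left out, 2 with a flank of 10 kb and 7 over the whole interval from Fabp5 to Fabp4, because the windows differ (the 3 further ones did not pass with the KO pairs averaged), and 0 regions were higher in any setting. With missing peaks filled in it was again 4, with the Fabp1 region 8.1 kb downstream in place of the Fabp5 one. Over the genome, lower and higher calls were 1988 and 575 with background scaling, and 2005 and 1006 with KO replicates averaged in pairs (chosen after seeing the data), where fewer samples entered. With 1 library left out they ranged from 2649 to 3216 and from 1765 (without WT replicate 3) to 3192. Regions with a peak in 4 WT and 0 KO libraries numbered 596, and 2517 when 1 library could depart from the rule, and 668 to 1095 with 1 library left out. The reverse numbered 207, then 869, 344 with lists cut to equal length, and 248 to 366 with 1 library left out. None was at a Fabp gene in any of these settings. The difference at the Fabp5 region 667 bp downstream turned negative with background scaling (-0.024), and ranged from -0.029 to 0.11 with 1 library left out. The difference in peaks per library at Fabp5, KO minus WT, was -0.5 with a flank of 50 kb. At Fabp4 it was 0, and -0.17 to 0.17 with 1 library left out. Library names pair no animals by the labels. The deviations of same-named KO and WT libraries correlated at 0.056, 0.12 and 0.037, against -0.067 to 0.032 for pairs with different names. The same-named pairs were thus the highest, and the reason was not tested. The main fit had no term for the replicate name. A fit with the replicate name as a block rests on the same-named libraries only. KO replicate 2 and WT replicate 4 have no partner and do not bear on its differences. In that fit of fewer libraries, the 4 calls stood (log2 differences -0.66, -0.66, -0.57 and -0.72). The count over the genome was 3283 lower and 3600 higher, and the Fabp5 region 667 bp downstream was -0.033. Depth limits what can be said of the Fabp3 regions, which rested on 11 to 38 tags.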
